A study of Mus musculus with 12 samples.

Results

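Matrilins, Comp and the small cartilage proteins are secreted or cell-surface proteins that fill the space between the collagen fibrils and the aggrecan gel of cartilage. Genes of this kind were followed here by symbol, and all 9 were found among the 17922 genes of the expression table: the matrilins Matn1, Matn3 and Matn4, Comp, Cnmd, Snorc, the Gla proteins Ucma and Mgp, and Cytl1. They were measured by RNA-seq in cartilage cells freed from mouse ribs with collagenase and cultured overnight. The 12 samples fall into 4 groups of 3 (n = 3 throughout), and the study asked what reduced glycolysis and reduced cytoplasmic acetyl-CoA do in the developing skeleton. The LDH knockout, Col2-Cre:Ldha(fl/fl):Ldhb+/-, and its control came from mice at postnatal day 5. The Acly knockout, Col2-Cre:Acly(fl/fl), and its control came from E18.5 mice (E, embryonic day). All 4 groups share a mixed strain with C57BL/6 dominant, and knockouts and controls were littermates. The labels give the controls no allele and no Cre status. Col2-Cre is driven by regulatory sequence of the type II collagen gene, so cells in the culture that never used it keep their alleles. Nothing in the labels says whether a sample is 1 animal or a pool, so p-values measure the spread between these samples.

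Matrilins are oligomers built from von Willebrand factor A domains that join collagen fibrils to proteoglycans. Comp, a thrombospondin, binds fibrillar collagens and matrilins in the same network. Chondromodulin (Cnmd) hinders blood vessel growth, Snorc is a small transmembrane chondroitin sulfate proteoglycan, and Cytl1 is a secreted cytokine-like protein of chondrocytes. Ucma and Mgp carry glutamates that a vitamin K-dependent carboxylase modifies, and Mgp is an inhibitor of mineral deposition in cartilage and vessels.

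Libraries held 26362407 to 28154143 expected counts, at which 3 counts correspond to 0.107 to 0.114 CPM (counts scaled to library size). Levels below are CPM normalized by TMM, a scaling between libraries, over the 6 samples of a set, unless TPM, which also allow for transcript length, are named. Ldha (Entrez 16828) stood at 79.3, 88.8 and 92.1 CPM in LDH knockouts and at 851, 792 and 894 CPM in their controls. Ldhb (Entrez 16832), of which the label states the loss of an allele, was not lower, at 14.6, 16.4 and 14.2 CPM against 12.3, 11.3 and 11.4 CPM. Acly (Entrez 104112) stood at 83.0, 52.5 and 87.0 CPM in Acly knockouts and at 197, 192 and 202 CPM in their controls. The 5 chondrocyte markers Col2a1, Acan, Sox9, Hapln1 and Col9a1 were present in every sample, with a summed level of 17630 to 26710 CPM in LDH knockouts against 9762 to 11230 CPM, and of 13270 to 16210 CPM in Acly knockouts against 7884 to 8614 CPM. Of these 5, 3 were called higher in the LDH knockout and 1 in the Acly knockout, where 1.43% and 0.0573% of all tested genes were. Col2a1 made up most of these sums, with a mean of 18470 CPM in LDH knockouts and 11920 CPM in Acly knockouts. Hapln1 was slightly lower in the Acly knockout, at a mean of 365 against 385 CPM, while the other 4 had log2 fold changes above 0. In the LDH set the summed markers of fat cells (75.6 to 134 against 37.6 to 52.4 CPM) and smooth muscle (78.3 to 169 against 48.6 to 68.7 CPM) were also above the controls, with 6 of 8 tested fat cell markers called higher (median log2 fold change 3.86) and 0 of 4 of smooth muscle. Those of fibroblasts and perichondrium (333 to 364 against 387 to 662 CPM) and of bone-forming cells (78.8 to 98.3 against 127 to 242 CPM) were below them, with 1 of 10 and 1 of 4 markers called lower, where 1.07% of all tested genes were. Col1a1 was on both of these lists and made up most of the bone-forming sum, at a mean of 76.5 against 137.5 CPM. Dmp1 was at 0 in all LDH knockouts and at most 0.0351 CPM in their controls. The sums of skeletal muscle (19.6 to 37.9 against 21.4 to 39.4 CPM) and of blood and endothelium (89.6 to 173 against 98.3 to 153 CPM) overlapped. In the Acly set only the fibroblast and perichondrium sum was apart among the markers of other cells, at 1436 to 3661 against 3769 to 4477 CPM, the lowest being knockout replicate 2. The Acly-set sums of bone-forming, fat, skeletal muscle, smooth muscle, and blood and endothelial markers overlapped between the groups. Lep was at 0 in all Acly controls and at most 0.0395 CPM in Acly knockouts. No marker of another cell type was called in the Acly set. The part of these markers in the members' results was not tested. The chondrocyte scaling given last only sets the members against the 5 chondrocyte markers, of which 3 were themselves called higher in the LDH knockout. It therefore cannot separate the share of chondrocytes from the level per cell. The summed level of 4 Y-linked genes was at most 0.0366 CPM in all LDH knockouts and 91.9, 100.2 and 0.601 CPM in LDH controls 1 to 3, so that sign of sex differed between the LDH groups. In the Acly set it was uneven as well, at 0.0743, 79.02 and 83.25 CPM in knockouts 1 to 3 and 0.3725, 117.3 and 2.808 CPM in controls 1 to 3.

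The LDH knockout was compared with its control first, which addresses what a loss of lactate dehydrogenase does to these cells. Of the 8 members that could be tested, 7 were higher in the knockout by edgeR at an adjusted p under 0.05: Snorc, Matn3, Cytl1, Ucma, Cnmd, Matn4 and Mgp (7 of 8, against 1.43% of 13321 tested genes called higher). Cytl1 and Ucma rose most, to 6.67 and 6.35 times the control mean, and Mgp rose least of the 7, to 2.19 times. All 8, Comp included, were higher in every knockout than in every control, as were 11.9% of tested genes, and all 8 had an unadjusted p under 0.05, as had 19.6%. The median log2 fold change of the 8 was 1.59, against 0.01 over all tested genes. Matn1 had too few counts to be tested. A larger share of chondrocytes and more of these transcripts per chondrocyte cannot be told apart in RNA from whole cultures, here or in the Acly set.

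The matrilins did not behave alike in level. Matn3 (Entrez 17182), the matrilin of epiphyseal cartilage and bone, was at 12.2, 20.5 and 13.0 CPM in LDH knockouts 1 to 3 and at 4.74, 2.76 and 5.33 CPM in controls 1 to 3. The lowest knockout was more than 2 times the highest control. The log2 fold change was 1.83 (standard error, SE, 0.27; edgeR adjusted p 0.0101). Matn4 (Entrez 17183) was at 4.50, 7.53 and 3.88 CPM against 2.002, 1.41 and 2.33 CPM, a log2 fold change of 1.47 (SE 0.29, edgeR adjusted p 0.0334). Exons of Matn4 overlap those of Rbpjl on the opposite strand in GENCODE M21, and since the use of strand in counting is not given, its count may hold reads of that gene. Matn1 (Entrez 17180), the classical cartilage matrix protein, had 5, 7 and 3 counts in the knockouts and 3, 0 and 4 in the controls, at or near the floor of 3 counts, so no difference was detectable at this depth. Matn2, the matrilin with the widest tissue range and no member of the cartilage set, fell from 26.8 ± 1.48 to 20.1 ± 0.99 CPM (SD), a log2 fold change of -0.41 (edgeR adjusted p 0.0469), but that call was lost in 6 of 6 fits with a sample left out (edgeR adjusted p 0.0555 to 0.151).

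Comp (Entrez 12845) was at 44.6, 87.7 and 37.9 CPM in LDH knockouts and at 31.1, 8.34 and 21.8 CPM in controls. The groups did not overlap, but control replicate 2 lay far below the other controls. Its log2 fold change of 1.47 had an SE of 0.42 and did not pass, with an edgeR adjusted p of 0.0990. With all 12 samples in the fit it passed (edgeR adjusted p 0.0469), and Mgp then did not (0.0684). Among the other thrombospondins Thbs1 rose, from 283 ± 39.9 to 657 ± 85.3 CPM (log2 fold change 1.22, edgeR adjusted p 0.00316). Thbs2, Thbs3 and Thbs4 did not pass, at -0.56, 0.52 and -0.20 on the log2 scale.

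Cnmd (Entrez 16840) stood at 29.2, 43.7 and 15.0 CPM in LDH knockouts and at 11.1, 7.59 and 8.34 CPM in controls. The 3 knockouts spread widely, yet all lay above the controls. The log2 fold change was 1.70 (SE 0.32, edgeR adjusted p 0.0282). Tnmd, the tendon homologue of Cnmd, did not pass, at 0.379 against 0.827 CPM and a log2 fold change of -1.12 (edgeR adjusted p 0.177). Snorc (Entrez 73234) was at 30.7, 46.9 and 39.7 CPM in knockouts and at 16.2, 13.1 and 13.7 CPM in controls. It had the smallest error of the 8, with a log2 fold change of 1.45 (SE 0.15, edgeR adjusted p 0.00316).

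The Gla proteins rose by unequal amounts. Ucma (Entrez 68527) was at 21.5, 34.3 and 8.89 CPM in LDH knockouts and at 4.53, 2.72 and 2.93 CPM in controls. Knockout replicate 3 held the lowest knockout level, still above every control. The log2 fold change was 2.66 (SE 0.43, edgeR adjusted p 0.0158). Mgp (Entrez 17313) stood at 43.4, 70.8 and 40.7 CPM in knockouts and at 29.3, 17.7 and 23.5 CPM in controls. Its log2 fold change was 1.13 (SE 0.23, edgeR adjusted p 0.0351). The enzymes of the vitamin K cycle did not rise with them. Ggcx, the gamma-glutamyl carboxylase, fell from 27.5 ± 1.49 to 19.9 ± 1.497 CPM (log2 fold change -0.47, edgeR adjusted p 0.0364), a call lost in 5 of 6 fits with a sample left out, at adjusted p of up to 0.164. Vkorc1 and Vkorc1l1 did not pass, at -0.07 and -0.23. Of the other Gla proteins Bglap2, an osteocalcin gene of bone-forming cells that shares sequence with Bglap, fell (log2 fold change -2.40, edgeR adjusted p 0.0156), a call lost without LDH knockout replicate 1 or control replicate 3, and Gas6 and Bglap did not pass, at -0.36 and -2.07.

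Cytl1 (Entrez 231162) was at 9.51, 33.7 and 14.2 CPM in LDH knockouts and at 2.53, 2.72 and 3.34 CPM in controls. The controls lay close together and the knockouts did not, knockout replicate 2 standing at more than 2 times the next. The log2 fold change was 2.74 (SE 0.42, edgeR adjusted p 0.0124), and without knockout replicate 2 it was 2.05 (edgeR adjusted p 0.00387).

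**Figure D1:**
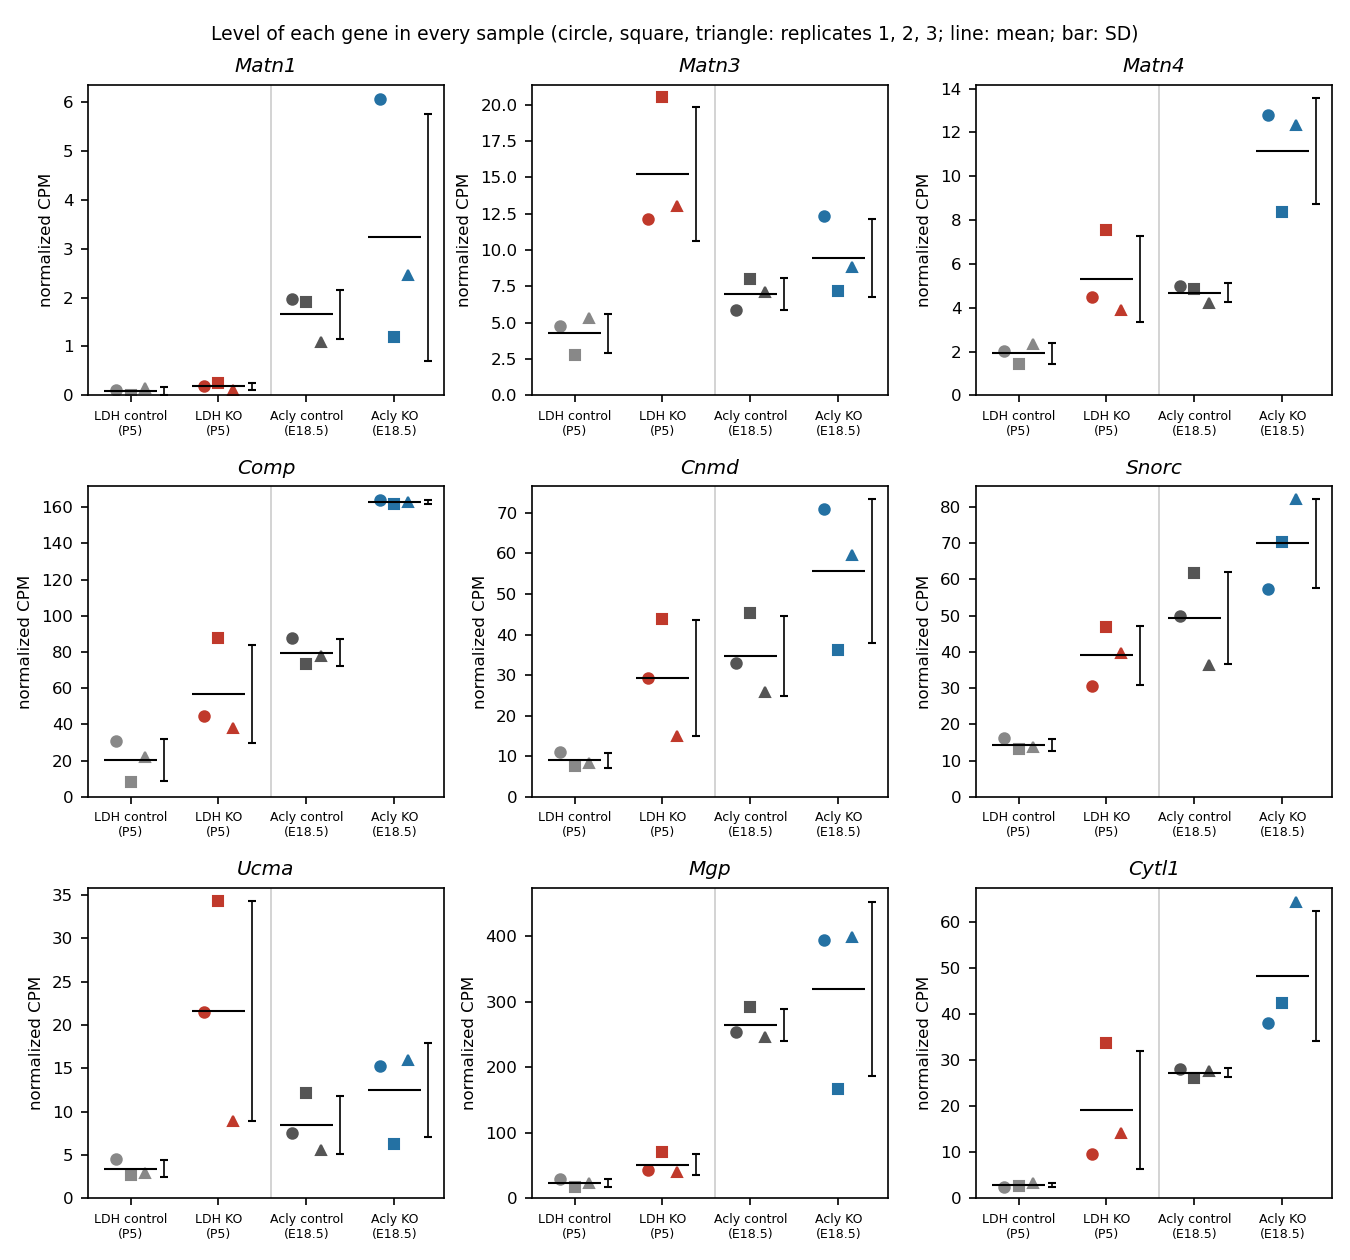
Normalized CPM (y axis, from 0) of each gene in the 12 samples, by group (x axis). Circles, squares and triangles are replicates 1, 2 and 3, the line is the group mean and the bar its SD. In the LDH set all genes but Matn1 have all 3 knockouts above all 3 controls, and Comp in Acly knockouts lies within 162 to 164 CPM.

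The number of LDH calls depended on single samples. Without knockout replicates 1, 2 or 3 it was 3, 4 or 8 of 8. Without control replicates 1, 2 or 3 it was 5, 4 or 2. The number of all genes called also varied, from 95 to 1068 over these 6 fits, against 332 of 13321 with all samples. Matn3 and Snorc were called in every one of these fits. All 8 log2 fold changes stayed above 0 (51% of tested genes were above 0 with all samples). Since every knockout lay above every control, leaving out a sample could not test the direction. With a covariate for Y-linked signal no member passed in edgeR (0 of 8 adjusted, 7 of 8 at an unadjusted p under 0.05, against 15.2% of genes in that fit), with log2 fold changes of 1.12 to 2.89, and the covariate partly coincides with genotype.

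The upstream sequence of the 3 members with the highest LDH fold change is shown. RefSeq windows (GRCm38.p6, which is not the mm9 build named for the counts) matched 6 of the 9 members, with 7 windows; the 250 bases before each annotated start were read, 5′ to 3′ on the gene's own strand. Capitals mark TTTAAA, an A/T run chosen after the letters were read, which reads the same on both strands. The windows are chr5:37735269-37735518 for Cytl1, chr2:4975872-4976121 for Ucma and chr12:8947679-8947928 for Matn3, all on the + strand.
Cytl1: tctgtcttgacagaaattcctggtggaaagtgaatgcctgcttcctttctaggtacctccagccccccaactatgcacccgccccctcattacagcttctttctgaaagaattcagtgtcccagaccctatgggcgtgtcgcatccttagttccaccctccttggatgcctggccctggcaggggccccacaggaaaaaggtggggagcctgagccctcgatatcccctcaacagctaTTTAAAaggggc
Ucma: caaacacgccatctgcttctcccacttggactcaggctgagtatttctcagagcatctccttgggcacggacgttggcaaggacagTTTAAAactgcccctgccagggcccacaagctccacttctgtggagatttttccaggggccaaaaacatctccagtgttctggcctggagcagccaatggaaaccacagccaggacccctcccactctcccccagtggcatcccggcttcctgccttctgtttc
Matn3: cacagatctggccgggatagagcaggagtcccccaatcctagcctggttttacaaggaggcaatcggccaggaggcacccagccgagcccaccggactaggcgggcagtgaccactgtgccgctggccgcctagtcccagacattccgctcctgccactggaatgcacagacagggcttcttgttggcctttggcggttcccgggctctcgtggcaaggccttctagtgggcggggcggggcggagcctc
TTTAAA begins at position -12 from the start in Cytl1 and at -164 in Ucma. It was present in 2 of the 7 member windows and in 12.1% of all 32851 windows of this length. On either strand, ACAAAG or ACAATG (forms of the hexamer that SOX factors, the regulators of chondrocyte genes, bind) occurred in 0 of the 7 windows and in 25.2% of all, and TATAAA in 0 of 7 and in 12.4% of all. These counts describe the letters of the windows only. The Matn3 window was the richest in G and C of the 3, at 65.2%, against 54.8% for Cytl1 and 56.4% for Ucma.

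The Acly knockout was compared with its control next, which addresses what a loss of ATP citrate lyase, a source of cytoplasmic acetyl-CoA, does to these cells. Comp alone rose past the threshold, to 2.05 times its control mean (1 of 9 members called higher, against 0.0573% of 13973 tested genes). All 9 log2 fold changes were above 0, as were 49.7% of all, and 5 members had an unadjusted p under 0.05, as had 15.8%. They had a median of 0.68 against -0.002 over all tested genes. For Comp, Matn4 and Cytl1 every knockout lay above every control (3 of 9, against 10.7% of tested genes). Matn3, Matn1, Cnmd, Ucma, Snorc and Mgp overlapped between the groups.

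Comp was at 163.9, 162 and 163.1 CPM in Acly knockouts and at 87.7, 73.4 and 77.6 CPM in controls. The knockouts lay within 2 CPM of each other, and the log2 fold change was 1.03 (SE 0.09, edgeR adjusted p 0.00722). Leaving out Acly control replicates 1, 2 or 3 ended that call, with edgeR adjusted p of 0.0730, 0.0648 and 0.112, as did fitting all 12 samples together (0.179), while the log2 fold change in these 4 fits was 0.98 to 1.11. None of Thbs1 to Thbs4 passed, at 0.42, -0.36, -0.20 and -0.73.

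Matn4 was at 12.8, 8.37 and 12.3 CPM in Acly knockouts and at 4.99, 4.88 and 4.19 CPM in controls. Its log2 fold change of 1.25, the highest of the 9, had an SE of 0.19 and an edgeR adjusted p of 0.0694, above the threshold. Matn1, which at this age was well above the floor, was at 6.06, 1.18 and 2.46 CPM against 1.97, 1.91 and 1.09 CPM (log2 fold change 0.97, SE 0.53, edgeR adjusted p 0.384). A single sample, knockout replicate 1, held most of that difference: without it the log2 fold change was 0.14. Matn3 was at 12.4, 7.14 and 8.81 CPM against 5.85, 8.03 and 7.11 CPM (log2 fold change 0.43, edgeR adjusted p 0.361).

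Cytl1 stood at 38.0, 42.5 and 64.4 CPM in Acly knockouts and at 28.1, 26.2 and 27.6 CPM in controls. The groups were apart and the log2 fold change was 0.82 (SE 0.18), with an edgeR adjusted p of 0.167. Cnmd was at 71.0, 36.3 and 59.6 CPM against 33.0, 45.4 and 25.9 CPM, and Snorc at 57.4, 70.3 and 82.1 CPM against 50.03, 61.8 and 36.5 CPM. Of the 3 knockouts 2 exceeded all controls for either gene, and the log2 fold changes were 0.68 and 0.50 (edgeR adjusted p 0.284 and 0.285). Ucma was at 15.3, 6.24 and 16.0 CPM against 7.49, 12.1 and 5.62 CPM (log2 fold change 0.57, edgeR adjusted p 0.449). Mgp stood at 395, 166 and 398 CPM against 254, 292 and 247 CPM, so that knockout replicate 2 was below every control and the other knockouts above them (log2 fold change 0.28, SE 0.28, edgeR adjusted p 0.616).

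**Figure D2:**
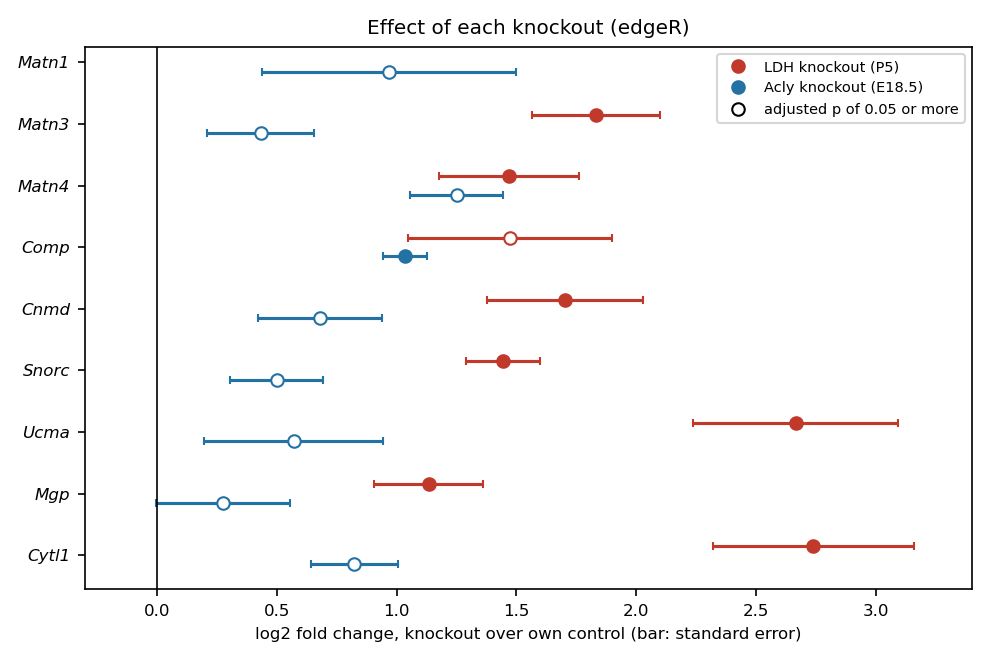
Log2 fold change of each knockout over its own control by edgeR (x axis) for each gene (y axis), with bars for the SE and filled points where the adjusted p is under 0.05. The filled points are 7 for LDH and 1 Acly (Comp), and the LDH point lies to the right of the Acly point for all 8 genes tested in both sets.

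Acly knockout replicate 2 stood apart. It was the lowest of the 3 Acly knockouts for 7 of 9 members (Matn1, Matn3, Matn4, Comp, Cnmd, Ucma and Mgp), while it was the lowest for 40.8% of all tested genes and the highest for 39.7%. Its summed chondrocyte markers, mostly Col2a1, were the highest of the 3, at 16210 CPM. Its summed fibroblast and perichondrium markers were the lowest, at 1436 CPM against 3566 and 3661 CPM. Replicate 2 also had the lowest sums of bone-forming (589 against 1263 and 1323 CPM), fat (219 against 478 and 361 CPM), skeletal muscle (166 against 289 and 368 CPM) and smooth muscle markers (92.3 against 109 and 134 CPM), and the highest of blood and endothelium (316 against 258 and 305 CPM). Col1a1, on the fibroblast list too, made up most of the bone-forming sum, with a mean of 964 CPM in Acly knockouts. The part of all these markers in the members' levels was not tested. Without Acly knockout replicate 2, 5 of 9 members were called higher by edgeR, Comp, Matn4, Cytl1, Cnmd and Mgp, with a median log2 fold change of 0.91 over the 9. That fit called 0.396% of all genes higher, and 132 genes in either direction against 19 with all samples. Mgp then had a log2 fold change of 0.59. In the LDH set knockout replicate 2 was the highest of the 3 knockouts for 9 of 9 members, against 34.4% of all tested genes, and also had the highest summed chondrocyte markers. LDH control replicate 2 was the lowest control for 8 of 9, against 34.2% of all, with Cytl1 the exception. LDH knockout replicate 3 and Acly control replicate 3 were each the lowest for 6 members and the highest for 0. They were the lowest for 37% and 30.3% of all tested genes. LDH control replicate 3 and Acly knockout replicate 3 were each the highest for 4 members and the lowest for 0, against 38.9% and 27.1% of genes highest. Some samples were mixed: Acly knockout replicate 1 was the highest for 5 members and the lowest for 2, and Acly control replicate 2 likewise.

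**Figure D3:**
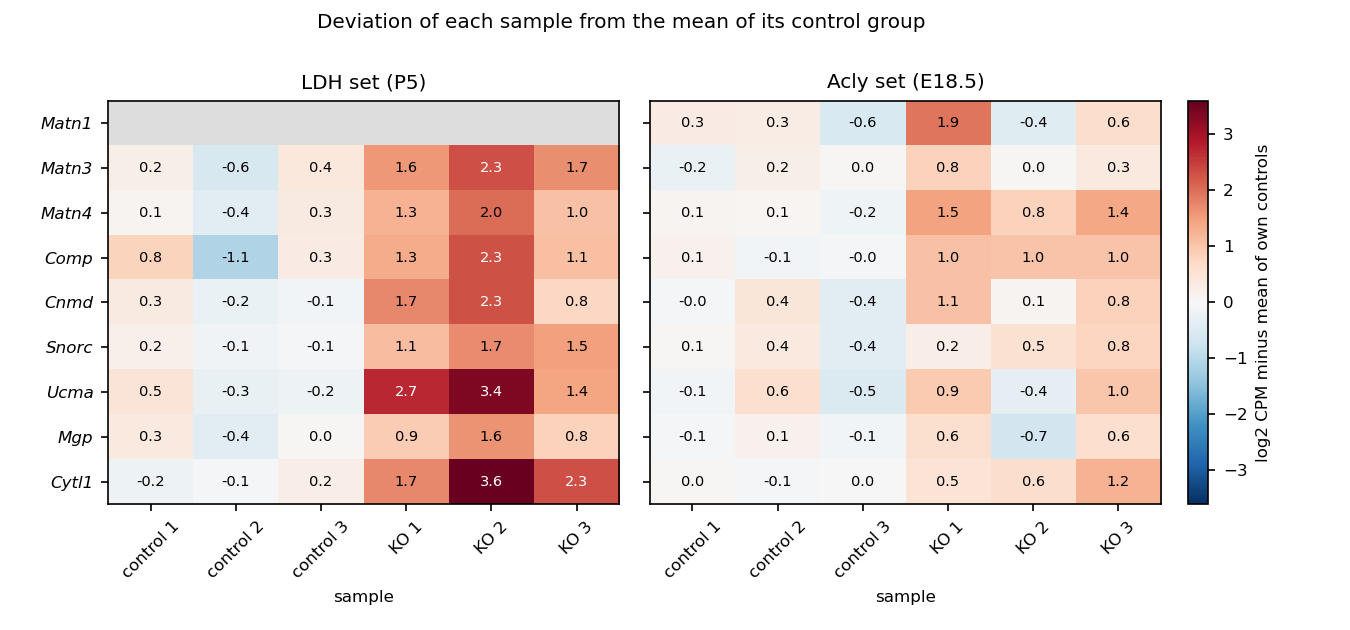
Log2 CPM of each sample minus the mean log2 CPM of its own 3 controls, by gene (rows) and sample (columns), with red above and blue below the controls. LDH KO 2 is the highest of the LDH columns in every row shown, Acly KO 2 is the lowest of the Acly knockouts in 7 of 9 rows, and Matn1 in the LDH set is grey because it was too low to be tested.

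The effects of both knockouts were then set against each other, in samples that are not shared. All 8 members tested in both sets had a log2 fold change above 0 in both, as did 29.3% of the 13140 genes tested in both, and all 8 were larger in the LDH knockout, as were 51.7% of genes. Tested as a difference of effects over all 12 samples, no member passed in edgeR (0 of 9 adjusted, against 0.161% of 14251 genes called in either direction). At an unadjusted p under 0.05 there were 4, Matn3, Ucma, Snorc and Cytl1, where 13% of genes were, with differences of 1.41, 2.10, 0.96 and 1.93 on the log2 scale. In simulated data this test recovered 38% of differences of 1 and 99% of differences of 2. Every simulated gene had the same spread between samples, so these shares need not hold for the members. In the real data the differences of Ucma and Cytl1 had SE of 0.65 and 0.51. DESeq2 called 1 member, Matn3. The difference was smallest for Matn1 (0.13), Matn4 (0.23) and Comp (0.45), with SE of 0.92, 0.37 and 0.50. Gene deleted and age coincide in this test.

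Levels in the control groups were compared to place the members at both ages, with all 12 samples scaled together. Of 9 members 7 were higher in Acly controls (E18.5) than in LDH controls (postnatal day 5) by edgeR, against 29.4% of 14251 genes, and for 8 of 9 the groups did not overlap, against 34.7%. Mgp differed most among the well-counted genes, at 251 ± 22.6 against 24.9 ± 6.18 CPM (log2 fold change 3.33, edgeR adjusted p 3.3e-06), followed by Cytl1, at 25.9 ± 1.02 against 3.03 ± 0.433 CPM (3.10, edgeR adjusted p 2.6e-05). Comp, Cnmd, Snorc and Matn4 differed by 1.81, 1.79, 1.63 and 1.14 on the log2 scale. Matn1 went from 0.0899 ± 0.0812 CPM in LDH controls to 1.57 ± 0.472 CPM in Acly controls, and its fitted log2 fold change of 4.08 depends on the prior count, since the former holds 7 reads over 3 samples. Matn3 did not pass (0.56, edgeR adjusted p 0.109), nor did Ucma (1.15, edgeR adjusted p 0.0555), though both passed without TMM, a setting under which 72.4% of called genes were higher against 53.3%. Markers of other cell types were higher in Acly controls too, with 10 of 10 of skeletal muscle (median log2 fold change 4.01), 10 of 10 of fibroblasts and perichondrium (2.43), 8 of 9 of fat cells (3.72), 5 of 6 of bone-forming cells (2.09) and 3 of 4 of smooth muscle (1.45) called higher. Of blood and endothelial markers 9 of 10 were called in either direction (median 1.68). Of the 5 chondrocyte markers 3 were called higher (Col9a1, Hapln1 and Acan) and 1 lower, with a median log2 fold change of 0.37. The lower one was the cartilage collagen Col2a1, at 5477 ± 265 against 9638 ± 849.6 CPM (-0.82, edgeR adjusted p 2.9e-04). The part of these markers in the members' levels was not tested, and age, mouse line and any library batch cannot be told apart here.

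Compared per transcript length, in deposited TPM, Mgp and Snorc were the most abundant members in every group and Matn1 the least. In LDH controls Mgp (84.5 ± 20.96 TPM) and Snorc (67.5 ± 8.404 TPM) overlapped, followed by Comp, Cnmd, Ucma and Cytl1 at 16.2, 12.3, 8.02 and 5.97 TPM, neighbours that were not separated from each other. Matn3, Matn4 and Matn1 came last at 2.71, 1.45 and 0.08 TPM, each below the one before it in all samples. In LDH knockouts Mgp (181 ± 54.4 TPM) and Snorc (181 ± 35.3 TPM) were level, and Ucma moved from the fifth to the third place, at 49.3 ± 27.9 TPM, without separating from Comp (44.1 TPM), Cnmd (39.0 TPM) or Cytl1 (38.9 TPM). In Acly controls Mgp, at 960 ± 120 TPM, stood above Snorc, at 235 ± 65.6 TPM, in all samples. Comp (63.8 TPM), Cytl1 (57.5 TPM), Cnmd (48.0 TPM) and Ucma (20.2 TPM) followed, and Cnmd overlapped with both Comp and Cytl1. Acly knockouts kept that order down to Ucma, with Mgp at 1105 ± 510 TPM and Comp at 123 ± 9.80 TPM, and placed Matn4 (8.14 TPM) before Matn3 (5.77 TPM), which overlapped. Cytl1 (95.6 TPM) overlapped there with both Comp and Cnmd (73.1 TPM). Mean TPM of Ucma, Matn3 and Matn4 were higher in LDH knockouts than in Acly controls (4.52 TPM for Matn3, 3.68 TPM for Matn4), and those of the other 6 were lower; these groups differ in age and line as well as genotype and were not tested.

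The partners of these proteins in the matrix were read from a list of 21 genes. In the LDH knockout 9 of 20 tested partners were called higher and 0 lower, where 1.43% and 1.07% of all genes were. Their median log2 fold change was 0.82, against 0.005 over all tested genes. The called genes with the lowest p were Col27a1 (2.60), Acan (1.22), Scrg1 (2.22) and Pcolce2 (1.21), with edgeR adjusted p of 0.00316 to 0.00731. In the Acly knockout 3 of 21 were called higher and 0 lower (median 0.25): Col2a1, the main cartilage collagen, at 1.05, Col27a1 at 1.05 and Col9a3 at 0.75, where 0.0573% of all genes were called higher. With a sample left out these calls were lost in 4, 5 and 5 of 6 fits, all with log2 fold changes above 0. Of 13 relatives of the members, which include Matn2, the thrombospondins and the vitamin K enzymes, 1 was called higher and 3 lower in the LDH knockout (median -0.36), namely Thbs1 against Bglap2, Ggcx and Matn2, where 1.07% of all genes were called lower. In the Acly knockout 0 of 12 were called by edgeR (median -0.23), where 0.0787% of all genes were called lower. Of 14 regulators of chondrocyte genes, among them Sox5, Sox6 and Sox9, 0 of 13 tested were called in either comparison (medians 0.08 and -0.03). Sox9, the master regulator, went from 581 to 767 CPM in the LDH set (log2 fold change 0.40, edgeR adjusted p 0.0650) and from 621 to 737 CPM in the Acly set (0.25, edgeR adjusted p 0.445). Of 10 genes of hypertrophy and mineralization, Col10a1 rose in both knockouts (1.70 and 1.02), Spp1 fell in the LDH knockout (-1.01), and the other 8 were not called in either. With a sample left out the Acly call of Col10a1 and the LDH call of Spp1 were each lost in 5 of 6 fits, and the LDH call of Col10a1 in 1.

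The genes most like each member over the 12 samples were found by the root mean square difference of log2 CPM, each taken relative to its own control mean, among the 10567 tested genes that averaged 5 CPM or more. Collagens led for several members. For Matn3 and Cnmd the nearest was Col9a1, at 0.283 and 0.277, followed by Omd (0.332) and Col4a5 (0.293). For Matn4 it was Col2a1 (0.321), then Rbp4 (0.327), and for Cytl1 it was Col27a1 (0.307), then Plin4 (0.443), a lipid droplet gene. Snorc lay nearest to Acan (0.227) and Pcolce2 (0.266), and Mgp to Enpp2 (0.212) and Scin (0.230). Comp was nearest to Ppp1r1b (0.333) and C1qtnf3 (0.401), and Ucma to Itih5l-ps (0.439) and Col27a1 (0.484). For Matn1, whose LDH values rest on few reads, Rtl3 (0.447) and Chrdl1 (0.459) were nearest. The median distance of all candidates ran from 0.703 for Mgp to 1.40 for Ucma. Within the set Comp and Matn4 were the closest pair, at 0.350, and Cytl1 and Matn1 the farthest, at 1.11.

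Scaling all genes to the mean log2 count of the 5 chondrocyte markers, a setting chosen after the data were seen, showed how the members moved against Col2a1, Acan, Sox9, Hapln1 and Col9a1. This scaling shifted the median of all genes by -0.94 in the LDH set and -0.41 in the Acly set. At this scaling 89.3% of tested genes were called in the LDH set, nearly all of them lower, and 36.9% in the Acly set. In the LDH knockout 6 of 8 members were called higher by edgeR, where 0.473% of genes were. Cytl1 (1.69), Ucma (1.67), Matn3 (0.86), Cnmd (0.72) and Snorc (0.49) were called at both scalings, and Comp (0.50) at this one. Matn4 (0.48) and Mgp (0.17) did not pass. In the Acly knockout Matn4 (0.84) and Comp (0.63) passed, where 0.2% of genes were called higher. Matn3 and Snorc were at 0.04 and 0.10, and Mgp was at -0.14. Cytl1 and Ucma were also the 2 members whose LDH and Acly effects differed by edgeR at this scaling, by 1.30 and 1.503 (2 of 9, where 0.365% of genes had a called difference above 0).

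**Figure D4:**
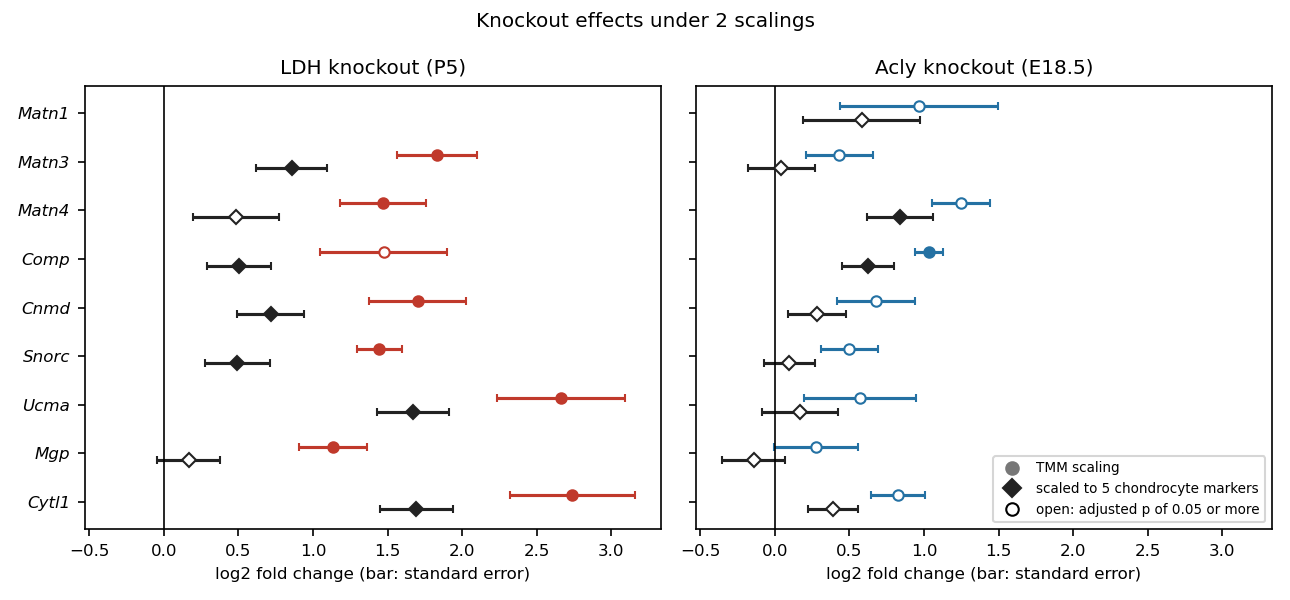
Log2 fold change (x axis) of each gene (y axis) under TMM scaling (circles) and under scaling to 5 chondrocyte markers (diamonds), with SE bars and open symbols where the adjusted p is 0.05 or more. Every diamond lies left of its circle, and in the LDH panel Cytl1 and Ucma remain near 1.7.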

How the data were processed

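RNA was measured in 12 samples of cultured mouse rib chondrocytes. The authors deposited 1 table of 17922 genes. Per the file headers it holds read counts, FPKM and TPM for each sample. The counts the authors deposited are estimated counts, since 7.32% to 8.16% of a sample's values are not whole; they were rounded here. The authors' FPKM values served alternative tests and their TPM values the order of levels. The submitters' processing notes name HISAT2 2.0.4 and mm9. The counter, annotation and use of strand are not given in the sources used here.

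Tests used edgeR 4.0.16 in R 4.3.3 (TMM, filterByExpr, two-sided quasi-likelihood F tests, Benjamini-Hochberg adjustment over all tested genes, threshold 0.05). Each knockout was fitted with its own control, and the difference of effects and the controls over all 12 samples. The SE is the size of the log2 fold change divided by the square root of F. Alternatives used DESeq2 1.42.0, limma 3.58.1 on log2(FPKM + 1 or 0.1), other scalings, a replicate block, a Y-linked covariate and each sample left out. In simulated data edgeR recovered 89% of log2 changes of 1 in the LDH comparison and 79% in the Acly comparison, but 38% for the difference of effects. Every gene was simulated with the same spread between samples, so these shares need not hold for the members.

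The members and lists were chosen with earlier results of these data known. Named genes are the members, the 3 targeted genes, up to 4 called genes with the lowest p of each list and the 2 genes most like each member; Sox9, and list genes named as not called, were chosen after their values were seen. Samples of a group differed by more than sampling noise. The floor of 3 counts covers counting error only.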

Additional observations from a re-analysis of the deposited data

Results flagged for a closer look

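Among Ldha, Acly and the 9 members, the effects of both knockouts differed by the test over all 12 samples for Ldha and Acly, and for none of the members (0 of 9 by edgeR, with 4 at an unadjusted p under 0.05, and 1 by DESeq2). Ldha had a difference of -3.18 on the log2 scale (edgeR adjusted p 5.5e-08), and it was lower in 3 of 3 LDH knockouts than in all LDH controls. Acly had a difference of 1.25 (edgeR adjusted p 0.0411), and it was lower in 3 of 3 Acly knockouts than in all Acly controls. Groups of 3 samples were not tested for a sample lying far from the others.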

How the results depend on the processing

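Members called higher in the LDH knockout (7 of 8) were 4 by limma on log2(FPKM + 1), 1 without the filter, 0 with the covariate for Y-linked signal and 2 to 8 with a sample left out. Genes called there (332) were 902 with DESeq2, 29 by limma on log2(FPKM + 1) without the filter, 3 with that covariate, 11897 with the marker scaling and 95 to 1068 with a sample left out. Members called in the Acly knockout (1 of 9) were 2 without the filter, 3 with DESeq2 (Comp, Matn4 and Cytl1), 0 with all 12 samples in the fit, 2 with the marker scaling and 0 to 5 with a sample left out. Genes called there (19) were 11 without TMM (27.3% of them higher, against 42.1%), 32 without the filter, 253 with DESeq2, 3 by limma without the filter, 31 with all 12 samples (12.9% higher), 6 with the Y-linked covariate, 5157 with the marker scaling and 0 to 132 with a sample left out; the fits with 0 had 2323 and 1008 genes at an unadjusted p under 0.05. For the difference of effects the members called were 1 with DESeq2 and 2 with the marker scaling, and the genes (23) 213 and 1261, and 5 to 143 with a sample left out. Members higher in Acly controls numbered 7 or 8 with a sample left out, and genes 6705 to 8361; without TMM the median of all genes was 0.19 and 72.4% of called genes were higher, against 53.3%. The cause of these shifts was not tested.

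Same-numbered samples did not deviate together (correlations across genes of 0.049, -0.159 and 0.006 in the LDH set and 0.001, -0.215 and -0.222 in the Acly set). With 3 samples per group these correlations cannot exclude that same-numbered samples share a litter or a preparation. With the replicate block 7 of 8 LDH members and 1 of 9 Acly members were called, 8 genes in the Acly comparison and 5 for the difference of effects. Among the knockouts only LDH knockout 1 correlated best with the control of its own number. The block could not be fitted to the controls.

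Reversed under the marker scaling were Ldhb (-0.58), Rtl3 (-0.36), Chrdl1 (-0.50) and Scin (-0.0138) in the LDH set, Ldhb (-0.33), Mgp (-0.14), Rtl3 (-0.10), Col9a1 (-0.0771), Omd (-0.24), Col4a5 (-0.10), Enpp2 (-0.0044) and Scin (-0.0605) in the Acly set, Matn3 (-0.0158) between controls, and Matn1 (-0.42), Matn4 (-0.36) and Comp (-0.12) in the difference of effects. That difference also reversed by limma on log2(FPKM + 1) for Matn1 (-0.34) and Matn4 (-0.068), with and without the filter, and on log2(FPKM + 0.1) for Matn1 (-0.19). With a sample left out the difference ranged from -0.46 (without LDH control 2) to 0.97 for Matn1, from -0.10 to 0.41 for Matn4 and from -0.0022 to 0.90 for Comp, the lowest of both without LDH knockout 2; Matn1 was also below 0 without LDH knockout 2 (-0.19) and without Acly knockout 2 (-0.27), Acly knockout 3 (-0.03) or Acly control 1 (-0.02). In the Acly set Chrdl1 ranged from -0.0468 to 0.63, Omd from -0.0485 to 0.41 and Ldha from -0.15 to 0.0096.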

Other observations

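Mgp made up a different part of the members' RNA in the LDH groups. Of the summed TPM of the 9 members, Mgp took 43.7%, 40.4% and 42.9% in LDH controls 1 to 3 and 34.0%, 32.8% and 32.7% in LDH knockouts 1 to 3. In the Acly set it took 67.6%, 67.5% and 71.8% in controls and 69.0%, 48.9% and 64.5% in knockouts, the lowest being replicate 2. The summed TPM of the 9 was 163 to 246 in LDH controls, 449 to 743 in LDH knockouts, 1246 to 1627 in Acly controls and 1058 to 2150 in Acly knockouts. These shares were looked at after the data were seen and were not tested.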
